A study of Mus musculus with 8 samples.

Results

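Total RNA of mouse liver progenitor cells kept in the medium labelled CM was compared with RNA of the same cells kept in the medium labelled NoRX, on 3 one-colour Agilent arrays per group. These 6 arrays are those whose titles carry the CM and NoRX labels, out of 8 in the series. The other 2, labelled DIFF, entered no fit reported here. The cells are BMEL, a bipotential line derived from the liver of mouse embryos, with the same line and no other treatment named for both groups. The series title names media conditioned by human amniotic epithelial cells. The labels themselves do not spell out CM or NoRX. No composition of either medium, time in culture or passage is given in the sources used here. Nothing says that the replicates of a group came from separate cultures, so that the p-values cover no more than array-to-array spread, which may be technical.

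BMEL cells are a model of the hepatoblast, the embryonic liver cell that can give rise to hepatocytes and to bile duct cells. Such lines keep dividing in culture while they carry some transcripts of both lineages. Conditioned medium holds what the donor cells have secreted and lacks what they have used up, such as glucose and amino acids. Amniotic epithelial cells line the inner fetal membrane and are studied for their effects on injured liver.

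Values are log2 signals minus the array's own 75th percentile, so that 0 is the brightness of a rather bright probe of that array, and a difference of 1 is a 2-fold change. They describe 1 probe per gene, and a level of 1 gene is not set against that of another. Differences are CM minus NoRX with the standard error of the limma fit, and adjusted p is the Benjamini-Hochberg value over all 13415 genes tested, called changed below 0.05. Bulk RNA was measured, in which fewer cells of a type and less RNA per cell cannot be told apart.

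The labelled cell type was checked first. The hepatoblast marker Afp, a fetal plasma protein gene, was at 1.46, 1.61 and 1.45 in NoRX and 2.05, 1.92 and 2.01 in CM, and the progenitor and bile duct factor Sox9 at 1.53, 1.58 and 1.56 in NoRX and 1.04, 0.98 and 1.14 in CM. Krt8 and Krt18, the keratin pair of simple epithelia, and Hnf4a, a hepatocyte regulator, were well above background on all 6 arrays. Of 18 hepatoblast markers on the array, 4 were well above background on none of the 6 (Igf2, Tbx3, Gpc3 and Lin28b). Dlk1, another hepatoblast marker, was well above background on too few arrays to be tested. Some markers that define other cell types were likewise undetected. Adgre1 and Lyz2 of macrophages, Tek and Tie1 of endothelium, Pdgfrb and Lrat of stellate cells, Alas2 of red cell precursors and Ptf1a of the exocrine pancreas were not well above background on any of these arrays. Other markers of the same lists were well above background on all 6, namely 7 of 19 for macrophages and leukocytes, 8 of 15 for endothelium, 14 of 24 for mesenchymal and stellate cells, 3 of 10 for red cells and 10 of 21 for pancreatic enzymes. Among them were Pecam1, Cdh5 and Kdr of endothelium, Vim, Des and Col1a1 of mesenchymal cells and Prss1 of the exocrine pancreas.

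The arrays of a group were close to each other and the groups stood apart. Across genes, the NoRX arrays correlated at 0.9962 to 0.9966, the CM arrays at 0.9961 to 0.9972 and arrays of different groups at 0.9696 to 0.9735. The median standard deviation of a gene was 0.061 in each group. All 6 arrays lay on 1 slide, with NoRX replicates 1 to 3 and CM replicate 1 in row 1 and CM replicates 2 and 3 in row 2.

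In this comparison 9228 of 13415 genes (68.8%) changed, 4704 of them higher in CM (35.1%) and 4524 lower (33.7%). Most changes were small, with 57.2% of the called genes under 0.5 on the log2 scale, and 832 genes (6.2%) rose and 687 (5.12%) fell by at least 2-fold. A fold of at least 4 was reached by 240 genes that rose and 123 that fell. The groups did not overlap in 9820 genes (73.2%). This direction split depends on scaling. The mean of 7 spike-in control probes lay at 4.447, 4.49 and 4.536 relative to the 75th percentile on the NoRX arrays and at 4.309, 4.32 and 4.157 on the CM arrays, a difference of -0.229. The smallest p an exact permutation test of 3 against 3 arrays can give is 0.1. When arrays were scaled to these probes (spike-in scaling), the median difference of all genes moved from 0.006 to 0.236, and 6784 genes were higher and 2202 lower. A gene list whose median is within about 0.23 below 0 therefore changes sign with that scaling, and the value under it is given beside each such median stated below. Single genes that fell by less than that did likewise. Some genes given below as not passing passed as higher with spike-in scaling. Among them were G6pc (0.77), Trib3 (0.38), Slc2a1 (0.33), Mlx (0.31), Atf3 (0.28), Gapdh (0.24), Lamb3 (0.22) and Smad7 (0.21). Some small falls given below did not pass with it, such as those of Apoe (-0.13), Actb (-0.12) and Krt18 (-0.01). Below, the counts of a list cover its genes measured on every array, that is, well above background on all 6. Of 12584 such genes 69.8% changed, 35.4% upward and 34.4% downward, at a median of 0.003, and a list's counts are read against these shares. Where a group had no array well above background, the fold given below is a lower bound. Such a gene entered the test through the brighter group alone. It lies outside the counts and does not count as support for a shift of its list.

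**Figure D1:**
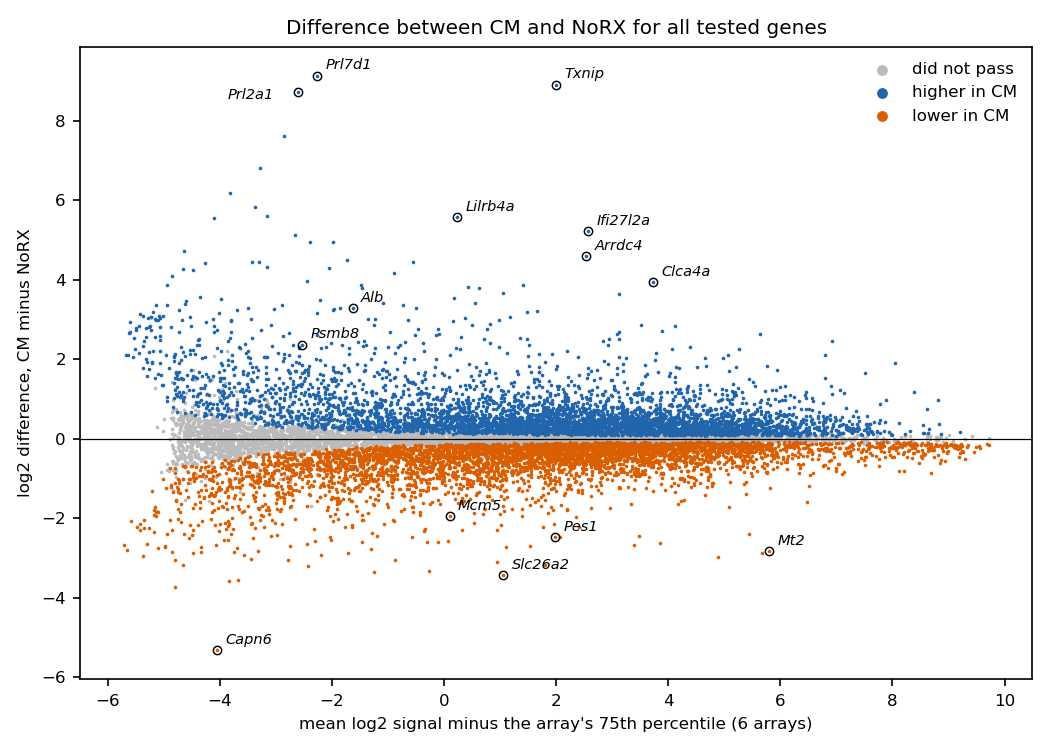
Each point is 1 of 13415 genes: the x axis is its mean log2 signal over the 6 arrays relative to the array's 75th percentile, the y axis its log2 difference, CM minus NoRX. Blue points passed as higher (4704) and orange points as lower (4524) with arrays scaled to the 75th percentile, and grey points did not pass, and the named genes include Txnip at 8.90 and Slc26a2 at -3.42.

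Txnip had the widest difference of any gene measured on every array, with clone and predicted gene names left out. It encodes a thioredoxin-binding arrestin that limits glucose uptake and is switched on by the glucose-sensing factors MondoA and ChREBP. Its log2 signal was -2.27, -2.32 and -2.78 on the NoRX arrays and 6.40, 6.54 and 6.38 on the CM arrays. The lowest CM array stood above the highest NoRX array by far, and the difference was 8.90 ± 0.12 (adjusted p = 2.26e-10). Arrdc4, the related arrestin gene driven by the same factors, was at 0.35, 0.27 and 0.08 in NoRX and 4.78, 4.86 and 4.86 in CM, a difference of 4.60 ± 0.07. The third arrestin of the group to rise, Arrdc3, did so by 1.94-fold, while Arrdc2 differed by -0.05 ± 0.05 and did not pass.

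For the targets of these glucose-sensing factors as a list, 4 of 13 genes measured on every array rose and 2 fell, with a median of 0.08 on the log2 scale. These 13 include Txnip and Arrdc4, and without that pair 2 of 11 rose and 2 fell, at a median of 0.01. G6pc, the glucose-6-phosphatase gene, was well above background on all CM and no NoRX arrays but differed by 0.54 ± 0.29 and did not pass. Klf10, a transcription factor gene of the list, rose 1.78-fold, whereas the lipogenic targets Fasn and Pklr differed by -0.80 and -0.03, the latter without passing. The sensors Mlxip (MondoA) and Mlx differed by 0.01 ± 0.09 and 0.08 ± 0.05 and did not pass, and Mlxipl (ChREBP) fell by 0.39 on the log2 scale on its brighter probe and rose on its other. For glycolysis itself 4 of 19 genes measured on every array rose and 7 fell, with a median of -0.05 on the log2 scale, and 10 rose and 0 fell with spike-in scaling, at a median of 0.18. Aldoc, an aldolase isoform, rose 4.43-fold and the phosphofructokinase gene Pfkm 1.78-fold. The main glucose transporter gene Slc2a1 and Gapdh differed by 0.10 ± 0.05 and 0.01 ± 0.04 and did not pass, though of 7 Gapdh probes 3 rose and 1 fell.

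Promoter sequence is shown for this pair because they rose furthest of the list. The carbohydrate response element, searched on both strands as 2 copies of CACGNG with 5 bases between, from 250 bases before to 50 after each gene's start, was found in 0.0838% of 10739 promoters of tested genes. Of 13 list members with a promoter sequence, 1 held it (Txnip). In the lines below, from RefSeq on GRCm38.p6, capitals mark that element and CCAAT boxes (CCAAT on either strand) in Txnip, and the E-box CACGTG and CCAAT boxes in Arrdc4.
Txnip, chr3:96557807-96557906, plus strand: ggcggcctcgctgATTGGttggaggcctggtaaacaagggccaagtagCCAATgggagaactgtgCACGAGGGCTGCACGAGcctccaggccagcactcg
Arrdc4, chr7:68749279-68749438, minus strand: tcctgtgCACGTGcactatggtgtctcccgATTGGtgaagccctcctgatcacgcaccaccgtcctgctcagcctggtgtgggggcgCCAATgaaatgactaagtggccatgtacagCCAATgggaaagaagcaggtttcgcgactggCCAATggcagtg
CCAAT occurred in 43.2% and CACGTG in 11.3% of the promoters of tested genes. A match is a stretch of letters and was not tested as a binding site.

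**Figure D2:**
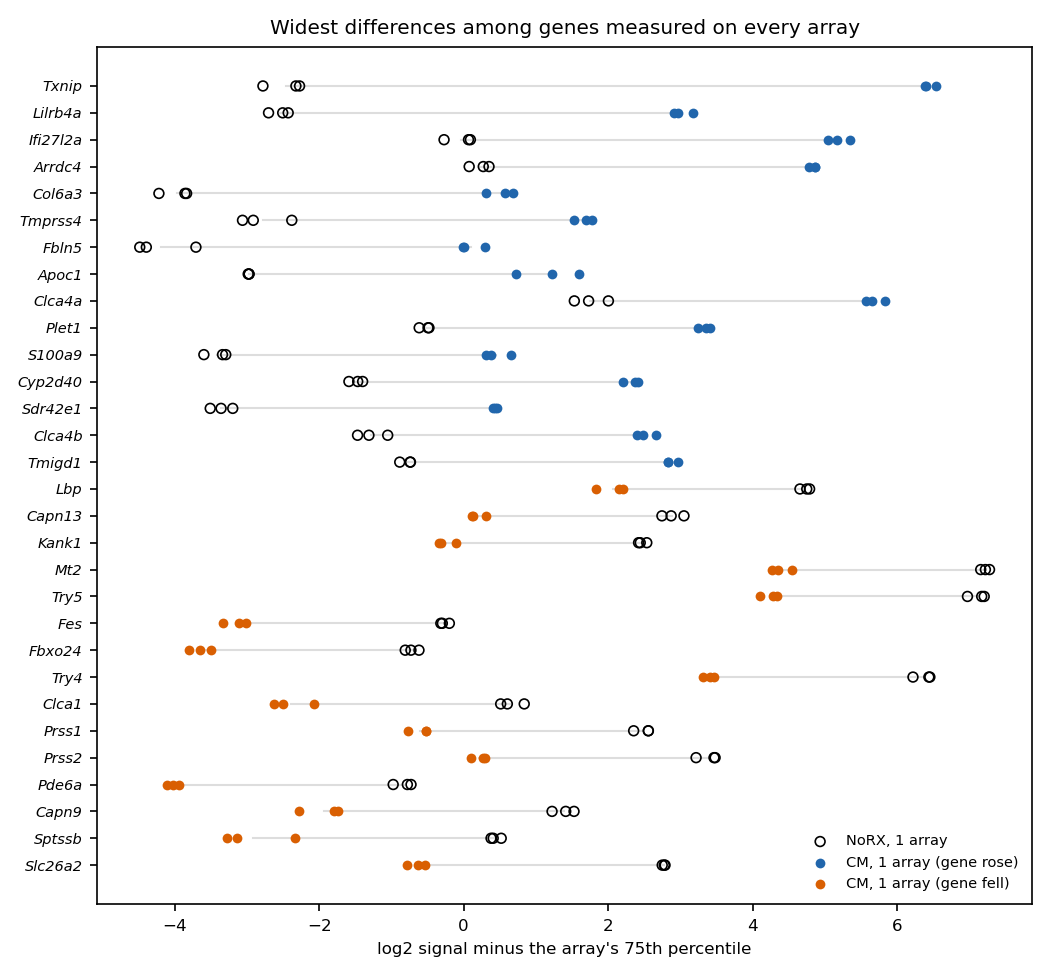
Log2 signal relative to the array's 75th percentile (x axis) for the 15 genes with the widest rise and the 15 with the widest fall among genes measured on every array (rows), with 1 open circle per NoRX array and 1 filled circle per CM array. Clone and predicted gene names were left out. In each row the 3 CM arrays lie apart from the 3 NoRX arrays, by definition of the genes drawn, from Txnip at 8.90 to Lbp at -2.67.

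Wide rises were also found among genes of other kinds. Plet1, a surface protein of progenitor epithelia, was at -0.48, -0.49 and -0.61 in NoRX and 3.25, 3.41 and 3.35 in CM and rose 14.6-fold. S100a9, a calcium-binding protein of myeloid cells and stressed epithelia, was at -3.29, -3.34 and -3.60 in NoRX and 0.38, 0.65 and 0.31 in CM, a 14.5-fold rise, and its partner S100a8 rose 2.29-fold. Of 13 S100a genes measured on every array, 7 rose and 5 fell, among them S100a4 by 1.52 on the log2 scale. The family therefore moved both ways. Sdr42e1, of a short-chain dehydrogenase family, was at -3.36, -3.20 and -3.51 in NoRX and 0.47, 0.40 and 0.44 in CM, and Tmigd1, an adhesion molecule of intestinal and kidney epithelium, at -0.74, -0.74 and -0.88 in NoRX and 2.83, 2.96 and 2.84 in CM. On both, every CM array exceeded every NoRX array by more than 3 units. Slc28a2, which carries purine nucleosides into the cell, was well above background on no NoRX array and at least 19.8-fold higher in CM, and the related Slc28a2b at least 2.45-fold. Tmem252, a transmembrane protein gene, was at least 16.4-fold higher.

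Lilrb4a, an inhibitory immunoglobulin-like receptor known from myeloid cells, was at -2.50, -2.43 and -2.70 in NoRX and 2.92, 3.18 and 2.97 in CM, and its near-identical relative Lilr4b was at least 21.2-fold higher, with no NoRX array well above background. Pirb, another receptor of the group, rose 6.37-fold, Lilra6 1.33-fold, and Pira2 differed by 0.19 ± 0.12 without passing. Such close relatives can share probe signal. The macrophage and leukocyte markers on the array were measured beside them, and their part in this result was not tested. Of 19 on the array, 4 were well above background on none of the 6 arrays (among them Adgre1, Lyz2 and Ncf1), and the log2 of their summed relative signal ran over 5.58 to 5.67 on the NoRX arrays and 6.10 to 6.17 on the CM arrays. Of 7 genes measured on every array, 4 rose, 0 fell and 3 did not pass, and the median log2 difference was 0.40. Lilrb4a is itself in this list. Without it, 3 of 6 genes rose and 0 fell, at a median of 0.16, and the summed signal ran over 5.58 to 5.66 on the NoRX arrays and 5.92 to 5.98 on the CM arrays. Cd14, the endotoxin co-receptor, rose 2.01-fold and Csf1r, the receptor of macrophage growth factor, 1.47-fold, with 1 of its 3 probes lower, while Itgam and Fcer1g differed by -0.08 ± 0.04 and -0.30 ± 0.16 and did not pass.

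The prolactin family is a cluster of hormone genes on chromosome 13 that expanded in rodents and is known from placental trophoblast. Of 23 members on the array, 12 were tested. Prl7d1 was at -7.00, -6.54 and -6.94 in NoRX and 2.25, 2.39 and 2.27 in CM, Prl2a1 at -6.93, -7.05 and -6.87 in NoRX and 1.77, 1.80 and 1.69 in CM and Prl8a9 at -6.47, -6.94 and -6.57 in NoRX and 0.74, 1.19 and 0.94 in CM. No NoRX array measured any of the 3 well above background, while every CM array did. The rise was at least 134-fold for Prl7d1, 91.5-fold for Prl2a1 and 52.5-fold for Prl8a9. Another 4 members, Prl7b1, Prl7a1, Prl5a1 and Prl7c1, were also well above background on all CM and no NoRX arrays, at least 4.72-fold, 1.9-fold, 1.55-fold and 1.78-fold higher. A gene tested only because CM was bright is likely to come out higher in CM, so these 7 do not count as support for a shift of the family.

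Members measured on every array did not all rise, with 3 of 5 higher and 1 lower. Prl2c1 rose 3.73-fold and Prl2c5 1.98-fold. The brighter probe of Prl6a1 rose by 0.79 on the log2 scale and its other probe by 5.11. Prl3d1, the placental lactogen of trophoblast giant cells, differed by 0.04 ± 0.14 and did not pass. Prl3b1, the later placental lactogen, fell by 0.38 on the log2 scale, but did not pass with spike-in scaling (-0.15). Another 7 family members were well above background on none of the 6 arrays. Genes of the placenta outside the family went both ways or were not detected. Ascl2, Hand1, Plac1 and Syna were not well above background on any array, and the trophoblast factor gene Gcm1 differed by 0.05 ± 0.08 and did not pass. Rhox5, a homeobox gene of placenta and testis, rose 4.76-fold and Plac8 1.67-fold, and the pregnancy glycoprotein gene Psg23 fell by 0.54.

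**Figure D3:**
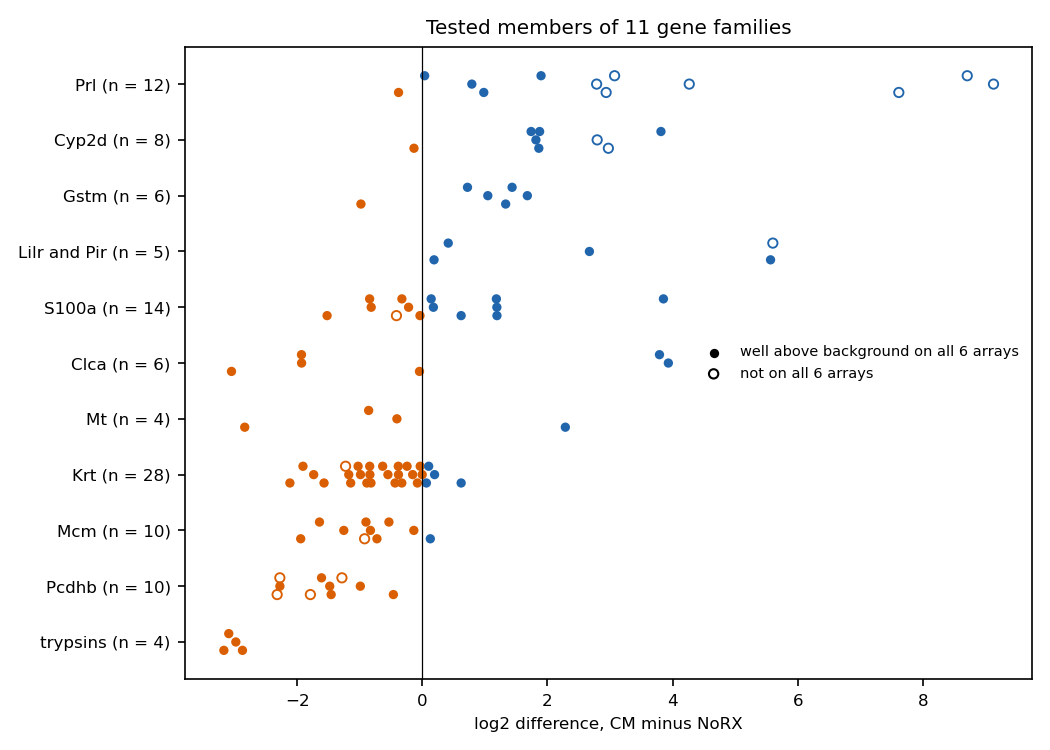
Log2 difference, CM minus NoRX (x axis), of the tested members of 11 gene families (rows), 1 point per gene, filled where the gene was well above background on all 6 arrays and open where it was not. The Prl row reaches from -0.38 to 9.13, Clca genes lie on both sides of 0, and all 10 tested Pcdhb genes, 4 of them open, and all 4 trypsin genes lie below 0.

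The Clca genes, whose products are secreted regulators of chloride channels in mucous epithelia, lie together on chromosome 3 and split. Clca4a was at 1.73, 2.00 and 1.53 in NoRX and 5.57, 5.83 and 5.66 in CM and Clca4b at -1.47, -1.05 and -1.31 in NoRX and 2.40, 2.66 and 2.48 in CM, rises of 3.93 ± 0.11 and 3.79 ± 0.10. Clca1, the goblet cell member, was at 0.84, 0.61 and 0.51 in NoRX and -2.06, -2.62 and -2.50 in CM and fell by 3.05 on the log2 scale, Clca3a1 and Clca3a2 each fell by 1.93, and Clca3b differed by -0.04 ± 0.09 and did not pass. Genes of the gut epithelium as a list were as divided. Of 16 genes measured on every array, 6 rose, 7 fell and 3 did not pass, and the median log2 difference was -0.06, and 6 rose and 4 fell with spike-in scaling, at a median of 0.17. Muc13, a membrane mucin, rose 7.93-fold and Cdx2, the gut master factor, 2.08-fold, while Fabp2 and Lgals4 fell by 0.82 and 0.80.

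The trypsin genes on chromosome 6 fell together. Prss2 was at 3.22, 3.48 and 3.47 in NoRX and 0.10, 0.26 and 0.29 in CM, Prss1 at 2.35, 2.56 and 2.56 in NoRX and -0.77, -0.52 and -0.52 in CM, Try4 at 6.22, 6.45 and 6.44 in NoRX and 3.31, 3.41 and 3.46 in CM and Try5 at 6.98, 7.17 and 7.21 in NoRX and 4.11, 4.29 and 4.34 in CM. The groups did not overlap in any of the 4, and the differences ran from -3.17 to -2.87. Their near-identical sequences can share probe signal. Of the other 6 genes of the pancreatic list measured on every array, 1 rose, 1 fell and 4 did not pass. The lipase gene Pnliprp2 rose 8.96-fold, the elastase gene Cela1 fell by 0.62, Ctrb1 and Cel differed by 0.24 ± 0.10 and 0.13 ± 0.13 without passing, and Amy2a5, Cpb1, Pnlip and the pancreatic factor Ptf1a were not well above background on any array. Calpain protease genes known from gut and trophoblast fell as well. Capn9 was at 1.53, 1.41 and 1.22 in NoRX and -2.28, -1.80 and -1.74 in CM, Capn13 fell by 2.70, and Capn6 was at least 10.7-fold lower in CM, where it was not well above background on any array. The ubiquitous calpain genes Capn1 and Capn2 differed by 0.12 and 0.07, the second without passing.

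The sulfate transporter gene Slc26a2 showed the widest fall among genes measured on every array, with clone and predicted gene names left out. It was at 2.78, 2.75 and 2.79 in NoRX and -0.78, -0.63 and -0.54 in CM, with the arrays of each group close together. Sptssb, a subunit of the enzyme that starts sphingolipid synthesis, was at 0.52, 0.38 and 0.41 in NoRX and -3.14, -3.27 and -2.34 in CM. Pde6a, known as a subunit of the photoreceptor phosphodiesterase, was at -0.97, -0.73 and -0.78 in NoRX and -3.94, -4.11 and -4.02 in CM, Fbxo24, of a ubiquitin ligase family, at -0.62, -0.81 and -0.73 in NoRX and -3.50, -3.65 and -3.80 in CM, the tyrosine kinase gene Fes at -0.29, -0.20 and -0.32 in NoRX and -3.01, -3.33 and -3.11 in CM and Kank1, a regulator of actin at adhesions, at 2.54, 2.42 and 2.45 in NoRX and -0.34, -0.31 and -0.10 in CM. In each of these genes every CM array was below every NoRX array by over 2 units. Nfatc2, a calcium-regulated factor, Naalad2, a peptidase, and the potassium channel subunit gene Kcne3 were at least 4.23-fold, 3.67-fold and 7.45-fold lower, being well above background on no CM array. Naalad2 was uneven within NoRX, at -2.02, -4.60 and -2.17. All 6 protocadherin genes of the Pcdhb cluster measured on every array fell, from Pcdhb12 by 0.46 to Pcdhb16 by 2.27. These are cell adhesion molecules known from neurons. Another 4 entered the test through the NoRX arrays, being well above background on 1 CM array or none, and were likely to come out lower. Of the 22 on the array, 10 were not well above background on any.

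Genes of the response to oxidants and electrophiles rose. This pathway runs from the sensor Keap1 through the factor NRF2 (Nfe2l2) to enzymes that make glutathione and conjugate or export toxic compounds. Of 31 genes measured on every array, 25 rose, 4 fell and 2 did not pass, and the median log2 difference was 0.82. Both subunits of the enzyme that starts glutathione synthesis rose, with Gclm at 1.49, 1.46 and 1.39 in NoRX and 2.92, 3.09 and 2.97 in CM and Gclc 4.06-fold higher. The cystine importer gene Slc7a11, which feeds that step, rose 3.21-fold, and Gss and Gsr, which finish and recycle glutathione, 1.39-fold and 1.35-fold.

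Of 11 glutathione transferase genes of the Gsta, Gstm and Gstt families tested, 10 rose and 1 fell. Gsta3 was at 1.27, 1.47 and 1.17 in NoRX and 4.88, 4.90 and 5.01 in CM, a rise of 3.63 ± 0.07 (adjusted p = 9.27e-10). All 3 Gsta genes rose, and Gstt1 and Gstt3, the theta class genes tested, rose 5.33-fold and 5.14-fold. Of 6 Gstm genes 5 rose, Gstm3 by 3.2-fold on its brighter probe and by 3.38 on the log2 scale on its other, while Gstm7 fell by 0.98. The export pump gene Abcc2 was at least 5.27-fold higher and Nqo1, a quinone reductase often used as the indicator of this pathway, at least 25.2-fold. Nqo1 was at -5.41, -5.39 and -4.87 in NoRX and -0.25, -0.09 and 0.03 in CM. No NoRX array measured Abcc2 or Nqo1 well above background, so both entered the test only through the CM arrays. They lie outside the counts of the list and do not count as support for its rise. The carbonyl reductase genes Cbr3 and Cbr1 rose 7.08-fold and 3.58-fold, sulfiredoxin (Srxn1) 3.27-fold, thioredoxin reductase (Txnrd1) 1.96-fold and haem oxygenase (Hmox1) 2.39-fold. Against this direction, Prdx6 fell by 0.39, and Nfe2l2, Keap1 and Gpx4 fell by 0.19 to 0.23, less than the shift that spike-in scaling brings, under which their sign turned.

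The antioxidant response element, searched as TGACNNNGC on both strands, was found in 16.7% of promoters of tested genes. Of 27 list members with a promoter sequence 12 held it, 11 of the 22 that rose. Promoters of 3 that rose by over 2-fold are shown with the matches in capitals (RefSeq, GRCm38.p6).
Gclm, chr3:122245407-122245456, plus strand: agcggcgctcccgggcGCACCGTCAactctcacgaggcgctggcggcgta
Gsta3, chr1:21240445-21240494, plus strand: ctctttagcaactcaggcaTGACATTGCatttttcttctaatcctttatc
Abcc2, chr19:43782193-43782242, plus strand: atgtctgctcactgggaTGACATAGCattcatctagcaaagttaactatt
In Gclm the match lies on the opposite strand.

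Drug and lipid metabolism moved in parts. The Cyp2d genes, a cluster of cytochrome P450 enzymes on chromosome 15 that oxidise many drugs, rose in 5 of 6 measured on every array. Cyp2d40 was at -1.40, -1.47 and -1.59 in NoRX and 2.37, 2.41 and 2.21 in CM, Cyp2d12, Cyp2d22, Cyp2d26 and Cyp2d11 rose 3.67-fold, 3.64-fold, 3.52-fold and 3.34-fold, and Cyp2d10 and Cyp2d34, well above background on all CM and no NoRX arrays and so left out of that count, had a bound of 5.46-fold and 1.58-fold. Cross-hybridisation between these close relatives is possible. Of the wider list of drug metabolism, 7 of 29 genes on the array, Cyp3a11, Cyp1a2 and Cyp7a1 among them, were well above background on none. Of 20 genes measured on every array, 9 rose, 7 fell and 4 did not pass, and the median log2 difference was 0.07. Ugt2b34, a glucuronosyltransferase gene, rose 2.86-fold, the reductase partner of microsomal P450 enzymes (Por) 1.81-fold, and Sult1a1, Sult1c2 and Ephx2 fell by 0.92, 1.05 and 0.81. Metallothionein genes, which bind zinc and copper, fell in 3 of 4. Mt2 was at 7.28, 7.16 and 7.22 in NoRX and 4.54, 4.26 and 4.35 in CM, a fall of 2.84, Mt1 fell by 0.86, and Mt4, the member of stratified epithelia, rose 4.88-fold. The zinc importer gene Slc39a4 rose 1.54-fold.

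For sterol synthesis 17 of 24 genes measured on every array rose and 4 fell, with a median of 0.46 on the log2 scale. Msmo1 and Sc5d, of its late steps, rose 2.19-fold and 1.64-fold. Lss, which closes the sterol ring, fell by 0.47 and Mvk by 0.40, so the pathway did not move as a whole. For fatty acid synthesis 10 of 18 genes measured on every array rose and 4 fell, with a median of 0.23 on the log2 scale. Fasn and its regulator Srebf1 fell by 0.80 and 0.63, as did the desaturase gene Scd2 (by 0.61), while Acacb, Acss2 and Elovl6 rose 1.68-fold, 1.5-fold and 1.44-fold. Fabp1, the fatty acid carrier of liver and gut, was at -1.25, -1.57 and -1.91 in NoRX and 1.08, 0.50 and 0.94 in CM and rose 5.35-fold, and the fatty acid receptor gene Cd36 had a bound of 2.23-fold. For PPAR targets and fatty acid oxidation 8 of 23 genes measured on every array rose and 8 fell, with a median of 0.01 on the log2 scale, and 13 rose and 2 fell with spike-in scaling, at a median of 0.24. Cpt1a, which admits fatty acids to the mitochondrion, fell by 0.22, turning above 0 with spike-in scaling, and Acadm and Hadhb differed by 0.04 ± 0.03 and -0.01 ± 0.06 without passing, though both passed as higher with spike-in scaling, at 0.27 and 0.22. For the respiratory chain 11 of 27 genes measured on every array fell and 8 rose, with a median of -0.03 on the log2 scale, and 16 rose and 1 fell with spike-in scaling, at a median of 0.20. Its widest difference was a fall of Cox5b by 0.65.

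Iron genes included 2 wide falls and 1 wide rise. Tfrc, the transferrin receptor that brings iron into dividing cells, was at 2.39, 2.18 and 2.26 in NoRX and 0.53, 0.35 and 0.62 in CM, and Lcn2, which binds iron-carrying bacterial siderophores, fell by 2.59. Hpx, the plasma carrier of haem, rose 3.23-fold, and Fth1, the ferritin heavy chain, 1.29-fold. Hamp, the iron hormone gene of hepatocytes, was not well above background on any array.

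Genes of the interferon response rose. Interferons act through the receptors Ifnar1 and Ifnar2 and factors such as Stat2 and Irf9 on antiviral genes. Of 39 genes measured on every array, 29 rose, 3 fell and 7 did not pass, and the median log2 difference was 0.61. Oasl2, of the family that senses double-stranded RNA, was at -0.96, -0.53 and 0.31 in NoRX and 2.00, 1.97 and 2.09 in CM, Rtp4 at 1.06, 1.19 and 1.83 in NoRX and 3.34, 3.37 and 3.52 in CM, Isg15, a ubiquitin-like modifier, at -0.68, -0.15 and 0.18 in NoRX and 1.06, 1.04 and 1.30 in CM and Ifit1, which binds viral RNA, at -2.46, -2.14 and -1.28 in NoRX and -0.31, -0.35 and -0.05 in CM. The groups did not overlap in these genes on the probes given, and in each NoRX replicate 3 was the NoRX array nearest to CM. Of the 2 Isg15 probes, at 1.35 and 0.66, only 1 passed. Ifi27l2a was at -0.27, 0.07 and 0.09 in NoRX and 5.16, 5.04 and 5.35 in CM, with the widest rise of the list at 5.22 ± 0.10 (adjusted p = 9.27e-10), and Irf7, Usp18, Dhx58 and Parp14 rose 2.98-fold, 2.79-fold, 4.41-fold and 2.83-fold. The receptor and factor genes moved less and both ways. Ifnar2 rose 1.49-fold and Ifnar1 fell by 0.94 on its brightest probe while another of its probes rose, and Irf9 and Stat2 rose 1.5-fold and 1.48-fold. The guanylate-binding and GTPase genes known for interferon gamma did not rise as 1 block. Igtp rose 1.52-fold, Gbp2 differed by 0.20 ± 0.32 without passing and Iigp1 fell by 0.44. Ifitm3 was split within the CM group, at -3.79, -0.83 and -0.91, and did not pass.

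The interferon-stimulated response element, searched on both strands as 2 copies of GAAA with 2 bases between, occurred in 3.59% of promoters of tested genes, and in 15 of 33 list members with a promoter sequence, 10 of 25 that rose and 2 of 3 that fell. Promoter stretches of 4 genes that rose by over 2-fold are shown with the matches in capitals (RefSeq, GRCm38.p6). Where the letters read TTTC the match is on the opposite strand.
Isg15, chr4:156200859-156200918, minus strand: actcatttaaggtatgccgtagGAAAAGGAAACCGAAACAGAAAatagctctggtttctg
Ifit1, chr19:34640769-34640828, plus strand: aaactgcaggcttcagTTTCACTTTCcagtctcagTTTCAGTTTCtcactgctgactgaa
Ifit3, chr19:34583364-34583428, plus strand: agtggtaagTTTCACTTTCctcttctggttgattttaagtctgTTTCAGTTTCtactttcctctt
Oas3, chr5:120777710-120777759, minus strand: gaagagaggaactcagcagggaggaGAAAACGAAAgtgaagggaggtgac
The Isg15 stretch holds overlapping matches, and the Ifit1 and Ifit3 stretches hold a pair each.

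Antigen presentation by class I molecules rose with it. Of 17 genes measured on every array, 12 rose, 1 fell and 4 did not pass, and the median log2 difference was 0.99. The immunoproteasome subunits Psmb8 and Psmb9 were at -3.78, -3.81 and -3.52 in NoRX and -1.37, -1.45 and -1.21 in CM and at -3.53, -3.04 and -3.22 in NoRX and -0.95, -1.12 and -0.76 in CM, and Psmb10 rose 1.25-fold. The pair that forms the peptide transporter, Tap1 and Tap2, rose 3.17-fold and 3.18-fold, its partner Tapbp 1.99-fold, and the heavy chain genes H2-K1, H2-D1, H2-T23 and H2-M3 2.14-fold, 1.99-fold, 2.23-fold and 2.77-fold. Heavy chain genes are near copies, and their probes can share signal. The light chain B2m rose 1.53-fold. The class II genes H2-Aa and H2-Ab1 and their activator Ciita were not well above background on any array.

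Other immune signals were divided. Of 23 genes measured on every array, 7 rose, 10 fell and 6 did not pass, and the median log2 difference was -0.04, and 10 rose and 5 fell with spike-in scaling, at a median of 0.18. Il1rn, the interleukin-1 receptor antagonist, rose 3.16-fold, Lif 2.54-fold, Il15 1.86-fold and the decoy chemokine receptor gene Ackr3 2.51-fold, and Il1a had a bound of 2.34-fold. Il1r1, the receptor through which interleukin-1 acts, fell by 1.23, Il18 by 1.13, Il33 by 0.74 and Il4ra by 0.85. The other probe of Il4ra differed by 0.12 and did not pass. Tnf, Il1b, Cxcl2 and Cxcl5 were among the 14 of 42 genes not well above background on any array. In the NF-kB pathway, 7 of 13 genes measured on every array rose and 2 fell, with a median of 0.27 on the log2 scale. Nfkbia, the inhibitor that NF-kB induces, rose 2.41-fold and Relb 1.68-fold, while Rela differed by -0.06 ± 0.03 and did not pass, and Bcl3 fell by 0.73. Of acute phase genes, Lbp, the plasma carrier of endotoxin, was at 4.79, 4.66 and 4.75 in NoRX and 2.20, 1.83 and 2.16 in CM, and Saa1 rose 1.41-fold.

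Plasma protein genes of the hepatocyte rose in part. Of 13 genes measured on every array, 9 rose, 2 fell and 2 did not pass, and the median log2 difference was 1.14. Alb was at -2.81, -3.19 and -3.80 in NoRX and 0.13, -0.28 and 0.20 in CM, Agt, the angiotensin precursor, rose 6.01-fold, Rbp4, the retinol carrier, 2.51-fold, and Gc, which carries vitamin D, 2.21-fold. Ahsg, the gene of fetuin-A, was at -6.80, -6.50 and -6.72 in NoRX and 0.08, -0.23 and 0.51 in CM, at least 29.5-fold higher. Its CM arrays were further apart than those of most genes, with CM replicate 3 highest. Serpina1a, an alpha-1-antitrypsin gene of a near-identical family, fell by 1.07, Ambp by 0.46, and Ttr differed by -0.11 ± 0.13 and did not pass. Of complement genes C4b and C3 rose 8.32-fold and 2.71-fold, whereas Cd59a, a membrane inhibitor of complement, fell by 1.88, and Cfb and Cfi by 0.86 and 0.76. Among the coagulation genes F2 (prothrombin) rose 3.32-fold and Procr, the protein C receptor, 4.61-fold, and F7, F11 and Plg were not well above background on any array.

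Apolipoprotein genes went both ways. Apoc1 was at -2.97, -2.98 and -2.97 in NoRX and 1.22, 0.72 and 1.60 in CM, with CM replicate 2 lowest and CM replicate 3 highest, and rose 17.8-fold, and Apoc4 rose 3.9-fold. Apob, the backbone of very low density lipoprotein, fell by 1.65, Apobr by 2.48 and Apoe by 0.36. For hepatocyte metabolism, 10 of 32 genes, among them Cps1, Otc and Pck1, were well above background on no array, and 6 of 13 genes measured on every array rose and 3 fell, with a median of 0.17 on the log2 scale. Of the asialoglycoprotein receptor genes Asgr1 rose at least 12.7-fold and Asgr2 rose 5.07-fold, Upb1 rose 2.5-fold, and Fah, Ass1 and Glul fell by 0.90, 0.72 and 0.42.

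The factors that direct these genes did not move one way. Of 22 genes measured on every array, 13 rose, 6 fell and 3 did not pass, and the median log2 difference was 0.27. Foxa1, which opens liver enhancers, was at -0.30, -0.33 and -0.33 in NoRX and 1.42, 1.50 and 1.49 in CM, Rxra rose 3.16-fold, Cebpa 2.1-fold, Prox1 2.1-fold and the oxysterol receptor gene Nr1h3 2.04-fold. Hnf4a fell by 0.73, Foxa2 by 0.89, Gata4 by 0.61 and Rora by 1.49. On the bile duct side, 13 of 28 genes measured on every array fell and 11 rose, with a median of -0.19 on the log2 scale, and 11 rose and 10 fell with spike-in scaling, at a median of 0.04. Spp1 was at -2.19, -2.07 and -2.20 in NoRX and 0.41, -0.19 and 0.27 in CM, Cldn4 rose 4.13-fold, and Krt7, Aqp1 and Itgb4 fell by 0.99, 1.18 and 0.88.

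Genes of the dividing cell fell in most lists, though not in all members. For DNA replication, 27 of 39 genes measured on every array fell and 5 rose, with a median of -0.46 on the log2 scale. The replicative helicase is a ring of 6 proteins, Mcm2 to Mcm7. Mcm5 was at 1.22, 0.91 and 1.10 in NoRX and -0.65, -1.09 and -0.86 in CM and Mcm6 at 5.08, 4.95 and 4.95 in NoRX and 3.33, 3.25 and 3.47 in CM, and Mcm3, Mcm7, Mcm2 and Mcm4 fell by 1.25, 0.90, 0.83 and 0.72, so that all 6 ring genes were lower. Cdc6, which loads the ring, fell by 1.17, while its partner Cdt1 rose by 0.22 and Gins4 by 0.27. Pole, the leading-strand polymerase gene, fell by 1.88 and Timeless by 1.71, against 0.01 ± 0.04 for Pold1, which did not pass. Pcna fell by 0.22 and did not keep that sign with spike-in scaling.

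The E2F site, searched as TTTNNCGC on both strands, occurred in 9.14% of promoters of tested genes and in 14 of 31 members of the replication list with a promoter sequence, 12 of 20 that fell. The promoters of the 2 helicase genes that fell furthest are shown with their matches in capitals (RefSeq, GRCm38.p6).
Mcm6, chr1:128359736-128359825, minus strand: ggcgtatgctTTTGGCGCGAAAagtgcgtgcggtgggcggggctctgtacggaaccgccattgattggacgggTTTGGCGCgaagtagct
Mcm5, chr8:75109344-75109393, plus strand: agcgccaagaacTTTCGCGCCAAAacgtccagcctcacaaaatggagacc
In both, matches on opposite strands overlap.

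For mitosis 26 of 34 genes measured on every array fell and 5 rose, with a median of -0.78 on the log2 scale. The log2 of the list's summed relative signal went the other way, at 6.58 to 6.62 on the NoRX arrays and 6.82 to 6.86 on the CM arrays. Mki67, present in cycling cells, was at 0.76, 0.43 and 0.56 in NoRX and -0.88, -1.28 and -0.88 in CM, Bub1, of the spindle checkpoint, at -1.99, -2.17 and -2.14 in NoRX and -3.41, -3.88 and -3.52 in CM and Foxm1, the factor that drives the programme, fell by 1.16. Of the 2 Foxm1 probes, at -1.16 and -0.61, only 1 passed. The cyclins Ccnb1, Ccnb2 and Ccna2 fell by 1.10, 1.12 and 0.99. Some members rose against the list. Pttg1, the securin gene, rose 2.03-fold, Cenpa 1.46-fold, Cdc25b 1.48-fold and Ect2 1.34-fold. Of the 2 Pttg1 probes, at 1.02 and 1.13 on the log2 scale, only 1 passed. Cdk1, the kinase of mitosis, differed by 0.24 ± 0.10 and did not pass, though it passed as higher with spike-in scaling, at 0.46. CCAAT and the letters TTNGAA, which cover the cell cycle homology region, were found in 22 and 23 of 30 promoters of the list, against 43.2% and 35.5% of promoters of tested genes.

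DNA repair genes fell with them. Of 21 genes measured on every array, 2 rose, 18 fell and 1 did not pass, and the median log2 difference was -0.58. The log2 of the list's summed relative signal overlapped, at 7.36 to 7.53 on the NoRX arrays and 7.39 to 7.44 on the CM arrays. Exo1, an exonuclease of mismatch repair and recombination, was at -0.85, -1.07 and -0.86 in NoRX and -2.43, -2.38 and -2.54 in CM, a fall of 1.52, Fanci fell by 1.19, Brca2 by 0.97 and the checkpoint kinase gene Atr by 0.97, while Msh6 rose 1.21-fold. Histone genes were mixed. The linker histone genes H1f5 and H1f0 fell by 1.31 and 1.09, H2bc21 by 1.11, and H1f2 and H2ac18 rose 1.35-fold and 1.25-fold. Enzymes of nucleotide synthesis fell in 17 of 30 genes measured on every array and rose in 7, with a median of -0.24, and 9 rose and 9 fell with spike-in scaling, at a median of -0.01. Gart, of purine synthesis, fell by 0.99, the ribonucleotide reductase genes Rrm1 and Rrm2 by 0.73 and 0.82 and Adsl by 0.65. The pentose phosphate gene Rpia rose 2.47-fold and G6pdx 1.38-fold.

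Regulators of entry into the cycle went both ways. Among inhibitors of cyclin-dependent kinases, Cdkn1c (p57) was at -3.69, -3.29 and -3.58 in NoRX and -2.02, -1.89 and -2.05 in CM and Cdkn1b (p27) at 4.06, 3.95 and 3.96 in NoRX and 5.14, 5.15 and 5.11 in CM. Cdkn2d, Cdkn1a (p21), Cdkn2a and Cdkn2b rose 1.48-fold, 1.41-fold, 1.36-fold and 1.27-fold. For Cdkn1a this holds on its brighter probe only, as its other probe fell by 0.32 on the log2 scale. Cdkn2c differed by 0.13 ± 0.22 and did not pass, and Rb1, the retinoblastoma protein gene, rose 1.77-fold. Among the drivers, the D cyclin genes Ccnd1, Ccnd2 and Ccnd3 fell by 0.75, 1.24 and 0.31 and their kinase gene Cdk4 by 0.83, whereas Cdk6, Cdk2 and Ccne1 differed by -0.17 ± 0.10, -0.14 ± 0.11 and -0.11 ± 0.05 without passing. Of the E2F factor genes E2f7 and E2f5 rose 1.66-fold and 1.3-fold, E2f6 fell by 0.39, E2f1 fell by 0.19, a sign that turned with spike-in scaling, and the other four did not pass. Of 27 members of the list measured on every array 11 rose and 7 fell, at a median of -0.02, and 13 rose and 3 fell with spike-in scaling, at a median of 0.20. In the list of p53 targets, 14 of 26 genes measured on every array fell and 6 rose, with a median of -0.13 on the log2 scale, and 10 rose and 2 fell with spike-in scaling, at a median of 0.10. Plk3 and Pmaip1 rose 3.17-fold and 2.33-fold, Trp53 itself fell by 0.58, and Mdm2, the target that restrains p53, fell by 0.14, a sign that turned with spike-in scaling. Of the survival genes Bcl2 fell by 1.43, and Bcl2l11, which opposes it, rose 1.74-fold.

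Genes that build ribosomes fell. Of 36 genes measured on every array, 2 rose, 26 fell and 8 did not pass, and the median log2 difference was -0.42. Pes1, needed for the large subunit, was at 3.21, 3.23 and 3.22 in NoRX and 0.84, 0.61 and 0.78 in CM on its brighter probe, a fall of 2.47, and its other probe fell by 0.35. Nop56 and Nop58, core proteins of the box C/D particle, fell by 1.12 and 0.89, Dkc1 by 1.05 and nucleolin (Ncl) by 0.56 on its brighter probe and 2.48 on its other. Myc, which drives this programme, fell by 0.88, and Mycn, well above background on all NoRX and no CM arrays, was at least 6.76-fold lower. For the ribosomal proteins themselves 26 of 27 genes measured on every array fell and 0 rose, with a median of -0.23 on the log2 scale, and 1 rose and 4 fell with spike-in scaling, at a median of 0.00. These genes thus moved as a narrow group, from -0.07 for Rpl3, which did not pass, to -0.46 for Rplp1. For aminoacyl-tRNA synthetases 12 of 20 genes measured on every array fell and 3 rose, with a median of -0.29 on the log2 scale, and 6 rose and 6 fell with spike-in scaling, at a median of -0.06. Yars was at -2.83, -3.14 and -3.06 in NoRX and -4.16, -4.25 and -4.35 in CM, a fall of 1.25 and the widest of this list, and Cars and Mars1 rose 1.22-fold and 1.21-fold.

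Amino acid supply was lower in parts. In the list of ATF4 targets 14 of 28 genes measured on every array fell and 7 rose, with a median of -0.13 on the log2 scale, and 11 rose and 10 fell with spike-in scaling, at a median of 0.10. Cth, which makes cysteine from cystathionine, was at 0.94, 1.03 and 1.02 in NoRX and -1.54, -1.62 and -1.66 in CM, and Cbs, the step before it, rose 1.51-fold. The serine synthesis genes Phgdh, Psat1 and Psph fell by 1.16, 0.93 and 0.83. Among the importers, Slc7a5, which carries leucine, fell by 1.03, Slc38a2 by 0.61 and Slc7a1, for arginine, by 0.51, and Slc7a3 was at least 6.51-fold lower. Atf4 fell by 0.15, turning above 0 with spike-in scaling, and its targets Trib3 and Atf3 differed by 0.15 ± 0.07 and 0.05 ± 0.07 without passing.

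Among genes of protein folding in the endoplasmic reticulum, 14 of 21 genes measured on every array rose and 1 fell, with a median of 0.15 on the log2 scale. Ero1b and Ero1a, which oxidise thiols during folding, rose 2.22-fold and 1.78-fold, Dnajb9 1.56-fold and Xbp1 1.35-fold, and Hspa5 (BiP) rose by 0.12 on the log2 scale. For heat shock genes and chaperones of the cytosol and mitochondria 12 of 19 genes measured on every array fell and 4 rose, with a median of -0.20 on the log2 scale, and 6 rose and 6 fell with spike-in scaling, at a median of 0.03. Hsph1 fell by 0.90, Cryab by 0.86, Hspd1, the mitochondrial chaperonin, by 0.65 and Hsp90aa1 by 0.45, while Dnajb4 rose 2.89-fold. Of lysosome and autophagy genes 16 of 27 genes measured on every array rose and 4 fell, with a median of 0.14 on the log2 scale, with Gabarapl1 at 2.03-fold, Hexa at 1.55-fold and Ctsd at 1.48-fold higher.

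Keratin genes fell. Of 15 genes measured on every array, 0 rose, 12 fell and 3 did not pass, and the median log2 difference was -0.55, and 1 rose and 9 fell with spike-in scaling, at a median of -0.32. Krt14, the basal cell keratin, was at 1.54, 1.60 and 1.64 in NoRX and -0.49, -0.36 and -0.71 in CM, Krt15 at -2.17, -2.15 and -2.18 in NoRX and -3.68, -4.45 and -4.09 in CM and Krt7, of duct epithelium, at 3.27, 3.34 and 3.29 in NoRX and 2.35, 2.36 and 2.23 in CM. Krt8 and Krt18 fell by 0.43 and 0.24. Over all 27 keratin family members measured on every array 18 fell and 1, Krt31, rose (1.54-fold). Actin and its partners fell slightly. For the list of actin and serum response factor targets 18 of 23 genes measured on every array fell and 1 rose, with a median of -0.23 on the log2 scale, and 5 rose and 3 fell with spike-in scaling, at a median of 0.00. Actb, Flna and Cnn2 fell by 0.35, 0.53 and 0.69.

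Cell junction genes did not move one way. Of 33 genes measured on every array, 12 rose, 17 fell and 4 did not pass, and the median log2 difference was -0.12, and 14 rose and 8 fell with spike-in scaling, at a median of 0.11. Gja1 (connexin 43) was at -2.75, -2.56 and -2.67 in NoRX and -1.17, -1.15 and -1.25 in CM, the epithelial splicing factors Esrp1 and Esrp2 rose 2.07-fold and 1.92-fold, and Cldn23 2.24-fold, while Cldn2, which forms a water and cation pore, fell by 1.00, Cdh2 (N-cadherin) by 1.02 and Cdh6 by 1.21. Epcam rose 2.34-fold. Of the mesenchymal genes Snai2 fell by 2.31, S100a4 by 1.52, Vim by 0.48 and Fn1 by 0.63, whereas Snai1 rose 2.47-fold, Des 3.82-fold and Pdgfra 2.38-fold. Des encodes the muscle and stellate cell filament desmin. Of the markers in that list, Pdgfrb, Lrat, Reln, Gfap, Lum, Thy1 and Twist1 were well above background on none of the 6 arrays, and the log2 of its summed relative signal ran over 8.93 to 9.02 on the NoRX arrays and 8.45 to 8.48 on the CM arrays.

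Matrix genes went both ways. Of collagens and fibrillar matrix genes 9 of 22 genes measured on every array rose and 9 fell, with a median of 0.29 on the log2 scale. Col6a3, of the beaded filaments around cells, was at -4.22, -3.83 and -3.86 in NoRX and 0.32, 0.69 and 0.57 in CM and Fbln5, of elastic fibres, at -4.48, -3.71 and -4.39 in NoRX and 0.00, 0.30 and 0.00 in CM, and Col6a1, the partner chain, rose 2.58-fold. Within the collagen of basement membranes, the chains Col4a1, Col4a2 and Col4a5 rose 2.18-fold, 1.77-fold and 2.08-fold, and Col4a3 and Col4a4 fell by 1.26 and 1.01. The fibrillar Col1a1 fell by 0.67 and the crosslinking enzyme gene Loxl2 by 1.05. Of laminins and integrins 15 of 26 genes measured on every array rose and 8 fell, with a median of 0.19 on the log2 scale. The laminin chain gene Lama3 rose 1.83-fold, and Lamb3, of a partner chain, differed by -0.01 ± 0.04 and did not pass. Itga5, the fibronectin receptor chain, rose 2.44-fold, and Itgb6 and Itga1 fell by 1.88 and 1.38. Among the proteases of the matrix, Tmprss4 was at -3.06, -2.38 and -2.91 in NoRX and 1.69, 1.78 and 1.53 in CM, while Tmprss2 fell by 2.17 and the inhibitor Timp3 by 1.76.

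**Figure D4:**
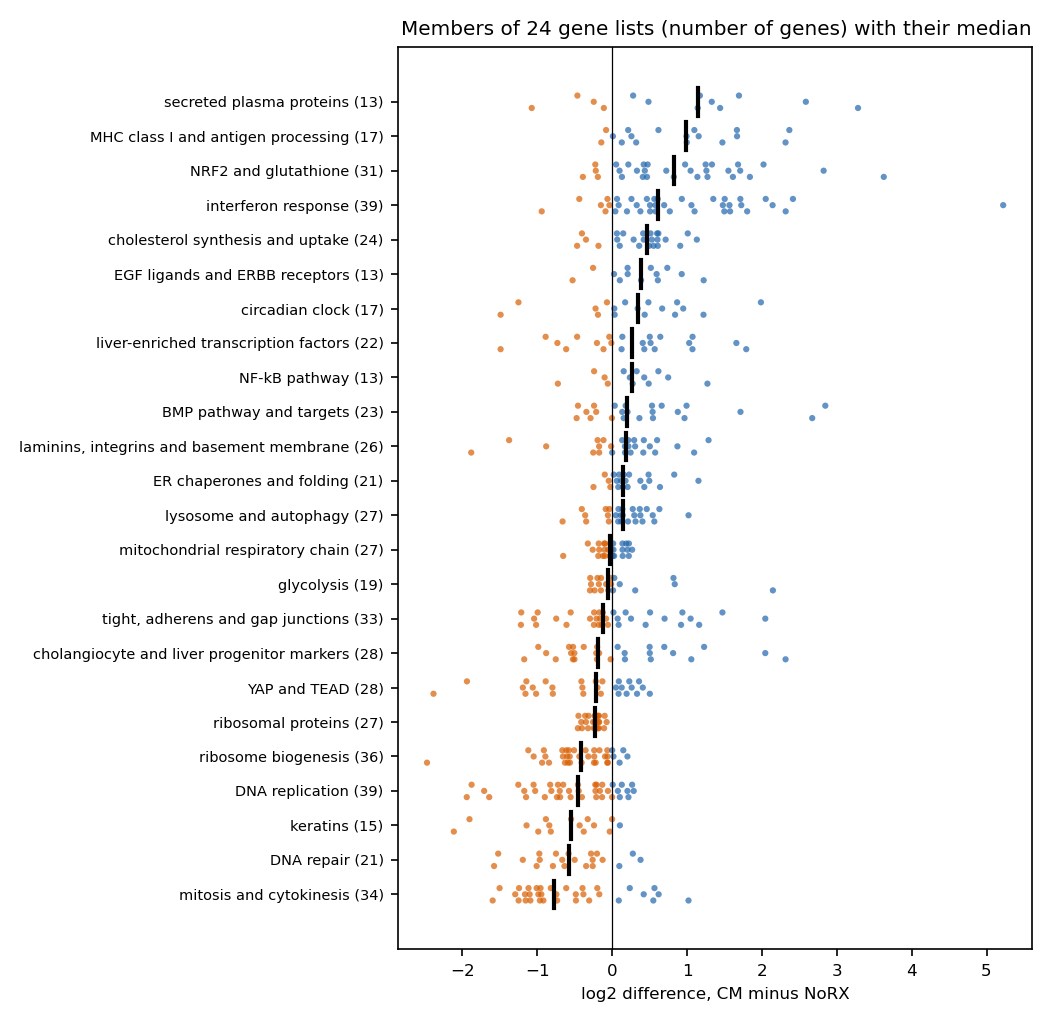
Log2 difference, CM minus NoRX (x axis), for members of 24 gene lists (rows) well above background on all 6 arrays, with 1 point per gene and a bar at the median. Medians run from 1.14 for secreted plasma proteins and 0.99 for class I antigen processing to -0.78 for mitosis, and several lists, such as junction genes and liver-enriched factors, spread to both sides of 0.

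Among signalling pathways, ligands, receptors and targets seldom moved alike. In the BMP pathway the ligand genes Bmp7 and Bmp2 were at -2.95, -3.69 and -1.38 in NoRX and 0.75, -0.10 and -0.12 in CM and at 1.86, 1.83 and 1.65 in NoRX and 4.51, 4.48 and 4.37 in CM, the receptor gene Bmpr2 rose 1.29-fold, and of the targets Id1, Id2, Id3 and Smad6 rose 1.95-fold, 1.45-fold, 3.28-fold and 1.58-fold. Hamp, Id4 and Bmp6 were well above background on no array. Of the 23 genes of this list measured on every array, 13 rose and 5 fell, with a median of 0.2 on the log2 scale. In the TGF-beta pathway Tgfb2 and Tgfb1 rose 4.03-fold and 1.8-fold, though of the 2 Tgfb2 probes, at 2.01 and 1.23 on the log2 scale, only 1 passed. The receptor gene Tgfbr1 fell by 0.80, and of the targets Pmepa1 fell by 1.00, with Smad7 at -0.02 ± 0.06, which did not pass.

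For YAP and TEAD 16 of 28 genes measured on every array fell and 7 rose, with a median of -0.21 on the log2 scale, and 11 rose and 10 fell with spike-in scaling, at a median of 0.02. The secreted targets Ccn2 and Ccn1 were at 6.59, 6.63 and 6.67 in NoRX and 4.40, 4.06 and 4.26 in CM and at 2.61, 2.66 and 2.63 in NoRX and 1.69, 1.39 and 1.39 in CM, and Ankrd1, Amotl1 and Ajuba fell by 1.94, 1.19 and 1.16. Yap1 and Wwtr1 (TAZ), the co-activators, rose 1.28-fold and 1.33-fold, and the DNA-binding partner gene Tead2 fell by 0.80. In the EGF family 8 of 13 genes measured on every array rose and 2 fell, with a median of 0.39 on the log2 scale. Erbb3 and Erbb2, which signal as a pair, rose 2.33-fold and 1.67-fold, the ligands Btc, Areg and Tgfa 1.53-fold, 1.43-fold and 1.31-fold, and the ligand Hbegf fell by 0.53. Egfr rose on each of its 3 probes, by 0.21 on the brightest and by up to 1.23 on the others. Of early response genes Fosb was at -1.52, -1.52 and -1.41 in NoRX and 1.24, 1.45 and 1.14 in CM, Fosl1 and Maff rose 2.27-fold and 2.27-fold, while Egr1, Egr2 and Jun fell by 0.55, 1.41 and 0.44 and Fos differed by -0.09 ± 0.06 without passing. Among the ERK feedback genes Dusp1, Dusp4 and Spry2 rose 1.94-fold, 1.83-fold and 1.72-fold, Etv5 fell by 0.47, and Dusp6 and Spry4 differed by -0.04 ± 0.04 and -0.04 ± 0.13 and did not pass.

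In insulin and growth factor signalling, Igfbp7 and Igfbp3, binding proteins of the insulin-like growth factors, fell by 2.05 and 1.31, and the adaptor gene Irs1 by 1.27, while Irs2 rose 1.49-fold and Insr 1.28-fold. Met, the receptor of hepatocyte growth factor, differed by 0.00 ± 0.12 and did not pass. In the Notch pathway Notch3 and Jag1 rose 2.18-fold and 1.41-fold, Notch2 and Lfng fell by 0.58 and 0.95, and the target gene Hes1 fell by 0.21, above 0 with spike-in scaling. In the Wnt pathway 13 of 47 genes were well above background on no array. Wnt11 rose 2.66-fold, Rnf43, a feedback inhibitor, 1.94-fold and Wnt5a 1.73-fold, and Lgr4, Wls and the receptor genes Fzd1 and Fzd2 fell by 1.05, 0.85, 0.78 and 0.82, with the dimmer probe of Fzd2 falling by 2.79.

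Of glucocorticoid targets 10 of 16 genes measured on every array rose and 5 fell, with a median of 0.34 on the log2 scale. Hsd11b1, which regenerates active glucocorticoid, was at -2.55, -2.34 and -2.36 in NoRX and 0.96, 0.97 and 0.90 in CM, Fkbp5 and Tsc22d3, 2 common indicators, rose 1.24-fold and 1.29-fold, and Sgk1 fell by 1.02. Clock genes rose in 10 of 17 genes measured on every array and fell in 4, with a median of 0.34. Bhlhe41 was at -3.25, -3.21 and -3.18 in NoRX and -1.02, -1.20 and -1.45 in CM, Per1, Nr1d1 and Cry1 rose 2.33-fold, 1.82-fold and 1.79-fold, and Ciart and Rora fell by 1.25 and 1.49. The imprinted genes Snrpn, Zrsr1 and Peg3 rose 2.34-fold, 2.19-fold and 1.51-fold, and Kcnq1ot1 fell by 0.90. Of channels and pumps, the water channel genes Aqp3 and Aqp5 rose 5.72-fold and 3.21-fold and Slc12a2, the chloride importer of secretory epithelia, fell by 1.53. The bile salt and drug exporter genes Abcc4, Abcb1a and Abcb4 rose 3.06-fold, 2.27-fold and 1.96-fold. Of chromatin enzymes Dnmt3b, Hells and Smarcd3 fell by 1.16, 1.06 and 2.13, and Ezh2 fell by 0.51 while its relative Ezh1 rose 1.65-fold.

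Some genes differed within a group as much as between groups. Among genes measured on every array, the 5 with the widest spread in NoRX were Dppa2, Rdh18-ps, Klrc1, Pou4f1 and Rps6kl1, and those in CM were Cyp4f14, Ifitm3, Dcn, Fndc9 and Syt10, and none of the 10 passed. For Dcn, a proteoglycan gene of connective tissue, CM replicate 1 stood at -1.29 and the other two CM arrays at -4.03 and -4.03, near the NoRX arrays at -4.43, -4.42 and -4.07. With spike-in scaling, Dppa2 (1.23), Klrc1 (1.1), Cyp4f14 (1.21) and Dcn (1.42) passed as higher and Pou4f1 (-1.12) and Rps6kl1 (-0.86) as lower. The rest did not pass with it either. Cyp4f14 and Dcn were each high on CM replicate 1 alone, so that their pass with spike-in scaling rests on that array. In Ifitm3 and Syt10 that array was the low one. CM replicate 1 also differs from CM replicates 2 and 3 in its row on the slide.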

How the data were processed

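According to the submitters' processing notes and the file headers, Agilent Feature Extraction 11.0.1.1 read each of the 6 arrays (Agilent SurePrint G3 mouse, 8 x 60K, Cy3). Per the file headers, the processed signal that was deposited is a linear intensity after background subtraction on that array. The series table repeats these values (largest difference 0). Its scaling between arrays is not given in the sources used here.

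From these files, log2 intensity minus the array's 75th percentile was computed, without control spots and outlier spots. Of 55681 probes, 27235 matched a RefSeq accession (assembly GRCm38.p6) and named 20660 genes. The probe with the highest mean was used per gene, if well above background on at least 3 of 6 arrays, which left 13415 genes. Of 3500 genes with several probes tested, 252 had probes called both ways. Where one group had no array well above background, the fold is a bound, against the higher of the probe's own signal and the array's lowest signal well above background.

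Groups were compared with limma 3.58.1 in R 4.3.3 (lmFit, eBayes with a trend), two-sided, on the 3 CM and 3 NoRX arrays. The number of arrays limits the precision. On simulated arrays of 13412 genes, the fit found 50% of true 1.25-fold changes, 78% of 1.5-fold, 86% of 2-fold and 98% of 4-fold changes, and called 9 of 13212 genes left unchanged. Only 50 genes were changed at each fold there, a far smaller share than the 68.8% called in the data. The Benjamini-Hochberg threshold depends on that share, so neither these rates nor the false calls carry over to this comparison. Same-numbered arrays did not deviate together (r from -0.082 to 0.011), so the numbers were not taken as pairs. The named genes are the 15 highest and 15 lowest called and measured on all 6 arrays, up to 8 bounds per direction, members of the 71 lists, relatives sharing a name stem, and the 5 most variable genes per group. The highest, the lowest and the bounds skip clone and predicted gene names. The highest and lowest were also required to have groups without overlap. The members and lists were chosen with earlier results of these data known. Promoters were searched for 10 motifs. Probes without a gene name (28446) stayed out of the fit.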

Additional observations from a re-analysis of the deposited data

Results flagged for a closer look

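The fit covers probes with a gene name. Among the probes without one, 162 were well above background on all 3 CM arrays and on no NoRX array, and 136 on all 3 NoRX arrays and no CM array. In the same test applied to 10519 unnamed probes, 2125 were higher and 2734 lower in CM, 473 and 476 of them by at least 2-fold. Their identity was not analysed here.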

How the results depend on the processing

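Of 414 called genes named above, 411 to 414 kept their call and direction when any 1 array was left out, and of 36 lists whose median over tested members was at least 0.2 from 0, 35 or 36 kept its sign. Without 1 array, 8680 to 8962 genes changed (4424 to 4594 higher, 4256 to 4378 lower), and 1470 to 1547 by at least 2-fold (824 to 845 higher, 645 to 710 lower). With median centring 5840 genes changed, 2726 of them higher and 3114 lower. The cause was not tested. With spike-in scaling 2202 were lower, 423 by at least 2-fold. With normexp background correction, run on median spot signals as the files hold no mean signal, and quantile normalization, 844 changed by at least 2-fold (483 higher, 361 lower). A block for slide row left 7949 changed genes, and within row 1, where CM has 1 array assumed to vary like NoRX, 7768. With the replicate block 9126 changed, and the numbers share no pairing.

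Among those 36 lists, the medians whose sign reversed with spike-in scaling were nucleotide synthesis (0.01), heat shock genes and chaperones (0.03), ribosomal proteins (0.00) and YAP and TEAD genes (0.02). Lists nearer 0 turned as well, and those whose median is stated above are given there with their values. Other lists above are described by single genes only. Over genes measured on every array, these medians turned above 0: Wnt (0.06), ERK feedback (0.22), coagulation (0.12), chromatin enzymes (0.12) and metallothionein and zinc genes (0.05). The named genes that turned were Atf4 (0.08), Cpt1a (0.01), E2f1 (0.04), Gpx4 (0.01), Hes1 (0.02), Keap1 (0.00), Mdm2 (0.09), Nfe2l2 (0.04) and Pcna (0.01). Atf4 was also at 0.00 with quantile normalization and 0.02 after normexp. The complement median was -0.33 over genes well above background on all 6 arrays and, without 1 array, ran from -0.01 (CM replicate 3) and 0.00 (NoRX replicate 3) to 0.41, against 0.35 with all. With no filter on dim probes, pancreatic enzymes were at 0.03 and collagens at -0.06. Signal over background limits genes near the floor to bounds.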
